A study of Homo sapiens with 30 samples.

Results

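Open chromatin was followed with androgen dose around 9 genes that hold back the cell cycle: GADD45A, GADD45B, GADD45G, BTG1, BTG2, CDKN1A, CDKN1B, E2F7 and KLF4. Every listed peak whose summit lay within 50 kb of the RefSeq gene body of one of them was taken. That gave 3495 of the 4651448 peak entries used in the series, at 301 of 683006 regions. The data are Omni-ATAC-seq peak lists, 1 per library, in which the Tn5 transposase marks accessible DNA. LNCaP cells, a human prostate cancer line that responds to androgen, were given 0.03, 0.06, 0.1 or 10 nM of the synthetic androgen R1881 or vehicle. VCaP cells, from a vertebral metastasis of prostate cancer and with an amplified androgen receptor gene, were given 0.01, 0.03, 0.06 or 10 nM R1881 or vehicle. Each of the 10 groups held 3 libraries. All cells, vehicle included, had first spent 48 hours in medium with 8% serum stripped of steroids by charcoal, and treatment lasted 24 hours. The labels do not say whether replicates came from separate cultures, so p-values measure the spread between these libraries.

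The 9 genes act at different points of growth arrest. The GADD45 proteins are stress-induced partners of PCNA and of cell cycle and stress kinases. BTG1 and BTG2 belong to an antiproliferative family that binds the deadenylase machinery. CDKN1A and CDKN1B encode the cyclin-dependent kinase inhibitors p21 and p27, E2F7 is an atypical E2F that represses E2F target genes, and KLF4 is a zinc finger factor known to induce CDKN1A. In prostate cancer lines such as these, low androgen is known to drive growth and high androgen to restrain it. The study set low against high androgen, and the question followed here is which sites near these genes were open at high androgen.

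A region is a window of 250 bp on each side of a peak summit. Each library ranks its own peaks by −log10 p, and a region takes the percentile of its peak, from 0 (no peak listed) to 100, on lists shortened to the shortest of the line. Differences are in percentile points, and a rank says nothing of a site's absolute signal. Tests took the regions where 3 or more of the 15 libraries in a line listed a peak, 111 near the 9 genes in LNCaP and 116 in VCaP, of which 86 were tested in both. A change was called at a limma adjusted p under 0.05 over all regions tested in the line. Distances run from the RefSeq gene start along the gene's strand, except for GADD45A, whose distances run from the lower-coordinate end of its gene body. Coordinates are GRCh38 (hg38).

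The number of deposited entries per library was 135254 to 223998 for LNCaP and 105034 to 170787 for VCaP, and the reads behind them are unknown. The LNCaP libraries of 10 nM held 167378, 219021 and 223998 entries, and those of vehicle 135254, 162333 and 174513. Shortening thus cut more entries from 10 nM replicates 4 and 5 than from any LNCaP vehicle library. Relative depth was read from the background pileup that the lists allow to be solved for. It was 3.06 to 5.26 in the LNCaP libraries and 1.78 to 2.74 in 13 of the VCaP libraries, while VCaP vehicle replicates 1 and 2 were shallower, at 1.14 and 1.09. Of 9 luminal prostate markers, 8 to 9 had a peak within 1 kb of an end of the gene in every library. Immune markers with one numbered 0 to 2 of 3, and basal and stromal markers 0 to 1 of 3 each.

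The promoters below, each the 250 bases before the RefSeq start (GRCh38.p14), 5′ to 3′, show what lies at the starts of these genes. BTG2 and GADD45G were among the genes with distal regions called higher at 10 nM in both lines, CDKN1A encodes the best known inhibitor of the group, and BTG1 held the single motif match, which is in capitals.
BTG2, chr1:203305269-203305518, plus strand: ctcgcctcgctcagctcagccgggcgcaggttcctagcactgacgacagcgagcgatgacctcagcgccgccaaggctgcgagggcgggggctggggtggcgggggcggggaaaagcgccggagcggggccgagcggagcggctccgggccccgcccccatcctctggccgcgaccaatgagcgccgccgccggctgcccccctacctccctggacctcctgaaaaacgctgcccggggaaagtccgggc
GADD45G, chr9:89604762-89605011, plus strand: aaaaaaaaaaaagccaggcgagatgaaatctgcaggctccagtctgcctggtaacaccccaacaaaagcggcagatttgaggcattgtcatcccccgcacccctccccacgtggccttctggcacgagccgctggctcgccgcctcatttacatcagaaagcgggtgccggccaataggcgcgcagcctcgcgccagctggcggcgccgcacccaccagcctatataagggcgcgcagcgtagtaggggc
CDKN1A, chr6:36678464-36678713, plus strand: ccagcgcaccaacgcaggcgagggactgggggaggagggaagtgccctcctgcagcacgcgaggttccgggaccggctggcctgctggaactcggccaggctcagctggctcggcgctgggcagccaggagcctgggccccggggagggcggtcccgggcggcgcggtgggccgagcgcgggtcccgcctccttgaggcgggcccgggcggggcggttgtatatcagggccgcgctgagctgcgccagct
BTG1, chr12:92145847-92146096, minus strand: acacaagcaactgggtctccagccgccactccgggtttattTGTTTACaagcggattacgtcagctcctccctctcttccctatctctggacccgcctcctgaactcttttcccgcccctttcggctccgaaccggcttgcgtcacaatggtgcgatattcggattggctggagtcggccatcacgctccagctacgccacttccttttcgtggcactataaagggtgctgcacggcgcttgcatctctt
The motifs were searched on both strands in the 8 promoters held by the RefSeq table. ACANNNTGT, the core of the androgen response element, was in 0 of 8, against 4.61% of 35116 promoters of the same length, and AGAACA, 1 arm of that element, which can overlap it, was in 0 of 8, against 12.4%. The forkhead motif TGTTTAC was in 1 of 8, starting 209 bases before the BTG1 start, against 2.98%, and TGTTTGC was in 0 of 8, against 3.23%. GC content was 56.4% for BTG1, 61.6% for GADD45G, 74.8% for BTG2 and 76.4% for CDKN1A, against a median of 58.0% over all promoters.

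The gene starts themselves mostly ranked high at every dose. At the GADD45A start (chr1:67685001-67685501) ranks were 99.9 ± 0.0386 (SD, n = 3) at 10 nM and 99.9 ± 0.0623 with vehicle in LNCaP, and 99.4 ± 0.292 at 10 nM and 99.2 ± 0.255 with vehicle in VCaP. The CDKN1A start (chr6:36678430-36678930) ranked 95.1, 94.6 and 91.6 at 10 nM, against 93.8, 94.9 and 90.9 with vehicle, in LNCaP. In VCaP it ranked 94.1, 93.7 and 90.2 at 10 nM, against 89.0, 70.7 and 92.7 with vehicle, and the lowest of these came from 1 of the 2 shallow vehicle libraries. The groups overlapped in both lines, with differences of 0.532 ± 1.54 (SE) and 8.54 ± 3.72 points.

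The other starts lay in the same upper part of the lists, apart from those of GADD45B and GADD45G. Group means at 10 nM and with vehicle in LNCaP were 99.1 and 99.1 for BTG1, 95.5 and 97.8 for BTG2, 94.1 and 96.5 for CDKN1B, and 95.1 and 95.1 for E2F7. In VCaP they were 93.8 and 94.4 for BTG1, 88.4 and 87.3 for BTG2, 83.5 and 76.1 for CDKN1B, and 96.2 and 96.4 for E2F7. The GADD45B start ranked lower, 70.9 ± 7.73 at 10 nM against 76.9 ± 10.3 with vehicle in LNCaP and 53.6 ± 8.36 against 66.0 ± 1.73 in VCaP. No start region passed the test at any dose, the smallest adjusted p at 10 nM against vehicle being 0.0635, for CDKN1B in LNCaP. With peaks ranked by fold enrichment instead, the LNCaP starts of GADD45A (−10.7 points, limma adjusted p = 0.0221) and BTG1 (−16.9 points, adjusted p = 0.0255) were lower at 10 nM than with vehicle.

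KLF4 and GADD45G have wide start peaks that the peak caller split into several summits. The KLF4 summit nearest the start, 220 bases inside the gene, was listed in 4 of 15 LNCaP and 9 of 15 VCaP libraries. The neighbouring summit 292 bases upstream (chr9:107489811-107490311, named after its values were seen) was listed in all of them, with means of 86.5 ± 6.16 at 10 nM and 89.9 ± 4.95 with vehicle in LNCaP and 92.6 ± 2.38 at 10 nM and 90.0 ± 2.74 with vehicle in VCaP. At the GADD45G start (chr9:89604690-89605190), within an interval of about 3776 bp, ranks were 53.2, 48.8 and 27.3 at 10 nM, against 74.4, 79.8 and 67.6 with vehicle, in LNCaP. Those groups did not overlap, but the difference of −30.8 ± 13.2 points (SE) did not pass (limma adjusted p = 0.0999). In VCaP the ranks were 59.2, 35.7 and 57.7 at 10 nM, against 0, 0 and 53.3 with vehicle, a difference of 33.1 ± 15.9 points that did not pass either (adjusted p = 0.227). The 2 vehicle libraries with no summit there are the shallow ones. VCaP minus LNCaP was 63.9 ± 20.6 points (adjusted p = 0.103), a difference that passed without VCaP vehicle replicate 4 (adjusted p = 0.0187) and turned to −5.03 points when an overlapping peak gave the value.

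**Figure D1:**
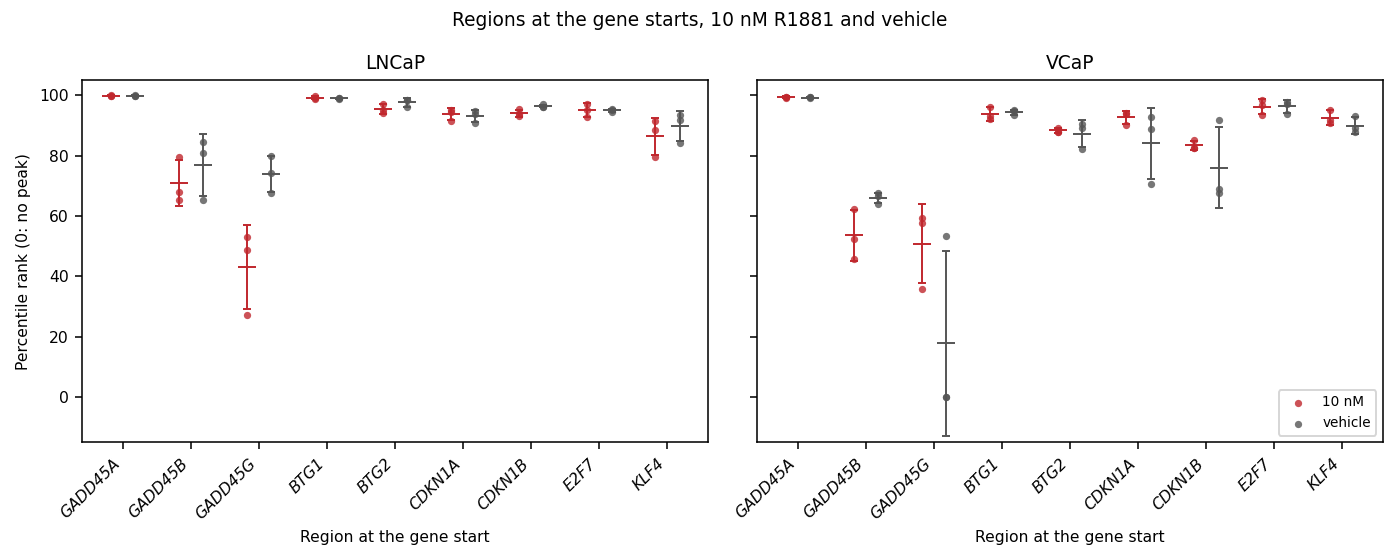
Percentile rank of the region at each gene start (vertical axis, 0 for no peak) in the 3 libraries of 10 nM R1881 (red, left of each pair) and of vehicle (grey), with mean and SD, in LNCaP and VCaP; for KLF4 the summit 292 bases upstream is shown. The starts of GADD45A, BTG1, BTG2 and E2F7 stay at or above 82.1 in every library shown, and those of GADD45B and GADD45G lie lower.

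Among the tested regions as a whole, ranks moved in both directions with androgen. In LNCaP 31 of 111 regions passed at 10 nM against vehicle, where 26.3% of all regions tested passed. Of these, 12 were higher (16.1% of all regions were) and 19 lower (10.2% of all regions were). All 12 higher regions and 18 of the 19 lower ones had 10 nM libraries that did not overlap with vehicle. The share over all called regions was not taken, so this cannot be read as particular to these genes. The median difference over the 111 regions was −1.3 points, beside −0.36 over all regions. None of the 12 higher regions, and 5 of the 19 lower, lay within 1 kb of an end of a protein-coding gene body, as did 25 of the 111 tested. Over all regions those shares were 2.68% of the higher, 8.12% of the lower and 12% of those tested. The CDKN1A body begins upstream of the start used for distances. Its higher summit, 0.6 kb inside that start, is therefore not counted as near an end.

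In VCaP 17 of 116 regions passed at 10 nM against vehicle, where 9.39% of all regions did. Of these, 11 were higher (6.66% of all) and 6 lower (2.73% of all), and in each of the 17 the 10 nM libraries did not overlap with vehicle. That overlap was not counted over all called VCaP regions either. The median difference was 0.6 points, beside −0.09 over all regions. With replicate 4 as the only vehicle library, an alternative chosen after seeing the data because replicates 1 and 2 were shallow, fewer regions passed. The share over all regions is not given for it, so the drop cannot be read as particular to these genes. That fit takes its spread from the other groups and has 2 fewer libraries, so the parts of depth and of fewer libraries cannot be told apart in it. CDKN1A, CDKN1B, BTG1 and GADD45B had no region past the threshold in VCaP, of 11, 10, 4 and 17 tested.

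The lines shared 5 higher regions, 2 near BTG2, 2 near E2F7 and 1 near GADD45G, which are 41.7% of the 12 in LNCaP and 45.5% of the 11 in VCaP. Over all regions the shared ones were 20.3% of those higher in LNCaP and 65.4% of those higher in VCaP. They shared 4 lower regions, 21.1% of the 19 in LNCaP and 66.7% of the 6 in VCaP, against 8.9% and 44.6% over all regions.

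**Figure D2:**
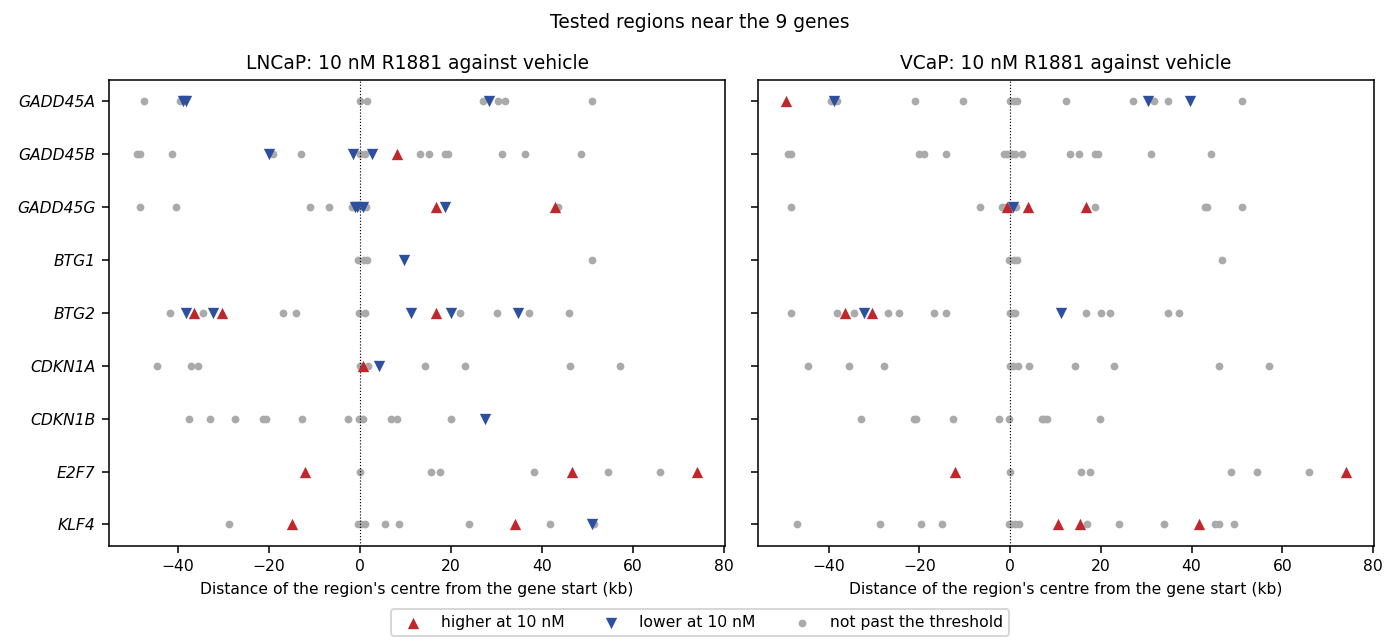
Tested regions near each of the 9 genes by distance from the gene start in kb (horizontal axis; from the lower-coordinate end of the gene body for GADD45A), for 10 nM R1881 against vehicle in LNCaP and VCaP. Red triangles are the 12 and 11 regions called higher, blue triangles the 19 and 6 called lower, and grey dots those not past the threshold.

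Sites ranked higher at high androgen were sought with 1 rule. It asked for a called rise at 10 nM over vehicle and over the 3 low doses together, and no call at any low dose against vehicle. All 3 libraries of 10 nM also had to lie above the other 12. Absence at lower doses was not asked for. The KLF4 region 14.9 kb upstream in LNCaP and the BTG2 region 36.4 kb upstream in VCaP had a peak in all 12 other libraries. In LNCaP 2 of the 111 regions met the rule, 1 near BTG2 and 1 near KLF4, where 4.68% of all regions did. In VCaP 8 of 116 met it (6.9%), where 2.99% of all regions did. They lay near GADD45A, GADD45G (2), BTG2 (2), E2F7 and KLF4 (2). With replicate 4 as the only vehicle library, 7 of these 8 lost the call against vehicle that the rule needs, all but the GADD45G region 16.8 kb downstream. The low doses called fewer regions in VCaP than in LNCaP, and the doses differ between the lines.

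Presence alone was counted in the shortened lists. There 1 of 111 LNCaP regions had a peak in all 3 libraries of 10 nM and in no other, against 1.69% of all regions. In VCaP 4 of 116 did, against 0.943%: 1 near GADD45G, 1 near BTG2 and 2 near KLF4. Leaving the low doses aside, 6 LNCaP regions had a peak in all 10 nM libraries and in no vehicle library (10.7% of all regions), and 11 VCaP regions did (5.45% of all). The reverse, a peak in every vehicle library and in none at 10 nM, held for 2 LNCaP regions (2.48% of all), near GADD45G and BTG2, and for 1 VCaP region (1.65% of all). That VCaP region, 47.0 kb upstream of KLF4 (chr9:107536551-107537051) and named after its values were seen, had a peak in the 3 vehicle libraries alone (ranks 20.7, 36 and 4.05; limma adjusted p = 0.058 at 10 nM against vehicle), as did 0.064% of all regions. No LNCaP region was open in vehicle libraries alone, against 0.0887% of all. A peak was listed in all 15 libraries at 55 of 111 LNCaP regions (31.3% of all regions) and at 34 of 116 VCaP regions (23.4% of all regions).

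At the low doses themselves, 3 of 111 LNCaP regions passed against vehicle at 0.03 nM (2.49% of all regions), 6 at 0.06 nM (5.54%) and 11 at 0.1 nM (9.49%). The 3 and 6 were all higher, where 2.19% and 4.85% of all regions were called higher and 0.299% and 0.692% lower. At 0.1 nM 8 were higher (7.3% of all) and 3 lower (2.19% of all). In VCaP limma called 0 of 116 regions at 0.01, 0.03 and 0.06 nM, where 0.0445%, 0.289% and 1.16% of all regions passed. Leaving out 1 library at a time gave 0 to 2 at each of these doses, a change not counted over all regions. A replicate block and the lists at full length also changed these counts, as given at the end. Split by direction, the VCaP shares over all regions were 0.0414%, 0.265% and 0.999% higher and 0.00312%, 0.0242% and 0.16% lower. Unadjusted limma p-values were under 0.05 at 4, 7 and 11 of the 116. Over all 128164 regions they were under 0.05 at 7640, 11488 and 15704, a larger share at each dose.

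High dose was also set directly against the 3 low-dose groups averaged. In LNCaP this called 19 of 111 regions (15.5% of all), 7 higher (9.36% of all) and 12 lower (6.1% of all). In VCaP it called 11 of 116 (5.57% of all), 9 higher (4.36% of all) and 2 lower (1.21% of all). These comparisons share the 10 nM or vehicle libraries with the ones above.

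BTG2, a p53-responsive antiproliferative gene, had the one region open at 10 nM alone in both lines. It lies 30.3 kb upstream of the gene start (chr1:203274929-203275429), outside any annotated gene. In LNCaP it ranked 40.5, 15 and 32.4 at 10 nM and had no peak in the 12 other libraries. In VCaP it ranked 48.9, 34 and 50.6 at 10 nM and again had no peak in the other 12. No peak was listed there in those libraries with the lists at full length either. The difference from the low doses was 29.3 ± 4.65 points (SE; limma adjusted p = 0.000341) in LNCaP and 44.5 ± 6.84 (adjusted p = 0.000468) in VCaP. In each line the region entered the test only through its 10 nM libraries, so these p-values add no support beyond the listed peaks. The fold enrichment the authors deposited was 2.84 to 3.61 in LNCaP and 2.75 to 3.88 in VCaP, and the ranks place the peak near the middle of its lists in VCaP and lower in LNCaP. The call against vehicle ended in VCaP with replicate 4 as the only vehicle library (adjusted p = 0.0725), and in LNCaP when only the compared groups were fitted (adjusted p = 0.0532).

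Farther upstream of that site, 2 standing peaks moved in opposite directions. The region 36.4 kb upstream (chr1:203268872-203269372, in LOC124904486) was open at all doses and ranked 84.5, 85.7 and 90.4 at 10 nM, against 68.9, 68.3 and 72.2 with vehicle, in LNCaP. In VCaP it ranked 88.0, 92.1 and 92.9 at 10 nM, against 48.9, 74.9 and 63.5 with vehicle. It rose by 17 ± 3.17 points (SE) in LNCaP (limma adjusted p = 0.000732) and by 28.6 ± 6.73 in VCaP (adjusted p = 0.00969), and neither call stood when peaks were ranked by fold enrichment. The VCaP rise of 19.2 ± 5.5 points over the low doses (adjusted p = 0.0452) was lost under 17 of 22 alternatives, among them leaving out any 1 of the 10 nM, 0.01 nM or 0.06 nM libraries or 0.03 nM replicate 1.

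The region 32.2 kb upstream (chr1:203273021-203273521, in LOC124904486) moved the other way. It ranked 57.4, 49.0 and 57.2 at 10 nM, against 89.3, 78.3 and 84.9 with vehicle, in VCaP, where it fell by 29.6 ± 5.31 points (limma adjusted p = 0.00164). That call was lost with a −log10 q of at least 5 (adjusted p = 0.0727). The region's VCaP means stepped down through 84.1 with vehicle, 80.8 at 0.01 nM, 76.0 at 0.03 nM, 69.7 at 0.06 nM and 54.5 at 10 nM. In LNCaP it averaged 72.0 ± 7.93 at 10 nM and 85.6 ± 4.76 with vehicle. That difference of −13.6 ± 4.33 points (adjusted p = 0.0288) was lost under 8 of 16 alternatives, among them leaving out vehicle replicate 3 or 5 or 10 nM replicate 3 or 4.

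On the other side of BTG2, the region 11.3 kb downstream of the start (chr1:203316535-203317035, outside any annotated gene) ranked above 95 with vehicle and fell at 10 nM in both lines. In LNCaP it ranked 85.0, 86.4 and 88.8 at 10 nM, against 96.4, 95.9 and 97.9 with vehicle. In VCaP it ranked 73.2, 83.7 and 81.9 at 10 nM, against 97.6, 98.5 and 97.3 with vehicle. The groups did not overlap in either line, and the falls were −10.0 ± 1.32 points (limma adjusted p = 4.19e-05) and −18.2 ± 2.35 points (adjusted p = 0.000212). It was below the low doses as well, by −8.22 ± 1.08 and −15.2 ± 1.92 points. All 4 of these calls were kept under every alternative tried. Farther on, 20 kb downstream (chr1:203325274-203325774), LNCaP had no peak in any shortened 10 nM list, against ranks of 52.2, 69.6 and 33.9 with vehicle. The difference was −51.9 ± 13.1 points (limma adjusted p = 0.00703). That call was lost with a fold enrichment ranking, with a −log10 q of at least 5 and with an overlap of at least 250 bp.

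BTG1, the relative of BTG2, had 1 change among 5 tested regions in LNCaP. It lies 9.6 kb downstream of the start (chr12:92135953-92136453, in LINC01619) and ranked 12.8, 1.46 and 6.68 at 10 nM, against 47.5, 66.9 and 43.9 with vehicle. Low doses stayed near vehicle, with means of 51.3 at 0.03 nM, 43.5 at 0.06 nM and 42.3 at 0.1 nM. It fell by 45.8 ± 10.1 points against vehicle (limma adjusted p = 0.00278), a call lost with the lists at full length (adjusted p = 0.0738). VCaP had no peak there in the shortened lists, and 1 library listed one at full length.

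GADD45G, which encodes a stress-response partner of cyclin-dependent kinases, had the steepest gain. A region 16.8 kb downstream of its start (chr9:89621571-89622071, outside any annotated gene) had no peak with vehicle in either line. In LNCaP it ranked 93.8, 93.1 and 97.3 at 10 nM. Low doses gave no peak at 0.03 nM, ranks of 52.3, 42.9 and 22.9 at 0.06 nM, and 75.2, 74.1 and 71.9 at 0.1 nM. The 0.1 nM rise passed under every alternative (limma adjusted p = 1.66e-05). The 0.06 nM rise (adjusted p = 0.00632) was lost with a fold enrichment ranking, with a −log10 q of at least 5 and with only the compared groups in the fit. The VCaP ranks were 0 at 0.01 and 0.03 nM, 37.7, 0 and 53.5 at 0.06 nM, and 89.9, 87.2 and 89 at 10 nM, and 0.06 nM did not pass there (adjusted p = 0.375). It was 57 ± 6.6 points above the low doses in LNCaP (adjusted p = 2.34e-05) and 78.6 ± 11.2 in VCaP (adjusted p = 0.000256). The change against vehicle differed between the lines by −6.01 ± 13.2 points (adjusted p = 0.894), and the calls at 10 nM were kept under every alternative tried. At the shared dose of 0.06 nM the difference between lines was not tested.

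Its surroundings were less uniform. In LNCaP a weaker region lay 18.8 kb downstream (chr9:89623519-89624019, named after its values were seen). It had no peak in any shortened 10 nM list, against ranks of 25.3, 33.9 and 34.6 with vehicle (limma adjusted p = 0.0205). In VCaP a region 3.9 kb downstream (chr9:89608631-89609131) ranked 44.0, 19.9 and 27.8 at 10 nM and had no peak in the other 12 libraries (30.6 ± 5.74 points above the low doses, adjusted p = 0.00215). It too entered the test only through its 10 nM libraries, so that p-value adds no support beyond the listed peaks. Far downstream, 42.9 kb from the start (chr9:89647678-89648178, in LINC03062), LNCaP ranks were 8.14, 46.2 and 42.1 at 10 nM, against 0, 0 and 3 with vehicle. That rise of 31.2 ± 9.81 points (adjusted p = 0.0272) was lost under 6 of 15 alternatives, among them leaving out vehicle replicate 3 or 4 or 10 nM replicate 4 or 5. Around the start, the summits 1.1 and 0.6 kb upstream and 0.6 kb inside the gene fell in LNCaP by 59.8, 39.9 and 22.2 points (adjusted p = 0.000113, 0.023 and 0.0061). In VCaP the summit 0.6 kb inside fell by 42.4 (adjusted p = 0.0441) and the one 0.6 kb upstream rose by 49.5 (adjusted p = 0.0164). All these summits belong to 1 wide peak interval, and when a region took the best peak overlapping it, none of the 5 calls stood.

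GADD45B, a second member of that family, had its calls in LNCaP. The region 8.2 kb downstream of its start (chr19:2484106-2484606, outside any annotated gene) ranked 84.6, 89.8 and 88.8 at 10 nM in LNCaP and had no peak with vehicle. It was graded with dose, at 42.9, 0 and 0 at 0.03 nM, 63.4, 57 and 54.3 at 0.06 nM and 78.5, 71.4 and 71.1 at 0.1 nM. The rise at 10 nM was 87.7 ± 9.69 points against vehicle (limma adjusted p = 8.67e-06) and 39 ± 7.91 against the low doses (adjusted p = 0.00248), both kept under every alternative. VCaP had no peak there in any of its 15 libraries, and the line difference was not tested. Nearer the gene, 2.7 kb downstream (chr19:2478583-2479083), LNCaP ranks were 70.9, 54.8 and 66.3 at 10 nM, against 78.3, 79.6 and 76.8 with vehicle, a fall of 14.3 ± 3.77 points (adjusted p = 0.0098) that was lost with the lists at full length or with only the compared groups in the fit. A region 19982 bases upstream, in LMNB2, was lower by −32.9 ± 7.69 points at 10 nM than with vehicle in LNCaP (adjusted p = 0.00425). Its peak was a split summit in 10 of 15 libraries, and the difference turned to 19.2 points when an overlapping peak gave the value.

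GADD45A, the p53-induced member, had its calls away from its start. In VCaP a region 49.4 kb from the gene body (chr1:67635553-67636053, outside any annotated gene) ranked 61.2, 39.1 and 60.5 at 10 nM and had no peak with vehicle. At 0.06 nM it ranked 9.71, 0 and 29.5, and it was 0 at the lower doses. It stood 49.3 ± 8.94 points above the low doses (limma adjusted p = 0.00166), kept under every alternative, while its call against vehicle (adjusted p = 0.00381) ended with replicate 4 as the only vehicle library. LNCaP had no peak there. A region 38.8 kb from the body (chr1:67646164-67646664, in the pseudogene HNRNPCP9) fell in both lines. It ranked 4.03, 0 and 3.81 at 10 nM, against 52.1, 62.6 and 61 with vehicle, in LNCaP, and 26.8, 0 and 35.3 at 10 nM, against 71.3, 67.6 and 61.1 with vehicle, in VCaP. The limma adjusted p-values were 0.000416 in LNCaP and 0.0326 in VCaP. Both calls ended when the best peak with an overlap of at least 250 bp gave the value (the LNCaP one at an adjusted p of 0.0546, against 0.0492 when the peak had to cover the centre base), as a second summit, 38.1 kb from the body, often shares the interval, and the VCaP call also ended without any 1 vehicle library or 10 nM replicate 1 or 2. The second summit itself ranked 7.72, 27.5 and 10.2 at 10 nM, against 53.7, 40.9 and 77.6 with vehicle, in LNCaP (adjusted p = 0.0103), a call that ended under the same scoring. On the other side, 36.6 kb from the body and in GNG12 (chr1:67724723-67725223), VCaP ranks were 0, 0 and 21.4 at 10 nM, against 75.6, 60.4 and 54.4 with vehicle. That fall of 56.4 ± 17 points (adjusted p = 0.042) was lost under 13 of 16 alternatives, among them leaving out any 1 vehicle or 10 nM library.

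CDKN1A and CDKN1B, the kinase inhibitors, had lower ranks at a distal and an intragenic region in LNCaP. The region 27.4 kb downstream of CDKN1B (chr12:12744555-12745055, in APOLD1) ranked 18.6, 19.7 and 0 at 10 nM, against 72.3, 77.1 and 77.4 with vehicle. Its means stepped down with dose, at 75.6 with vehicle, 65.9 at 0.03 nM, 52.5 at 0.06 nM, 45.2 at 0.1 nM and 12.8 at 10 nM. The fall of 62.8 ± 8.06 points at 10 nM (limma adjusted p = 3.25e-05) was kept under every alternative. The fall of 30.4 ± 8.06 at 0.1 nM passed as well (adjusted p = 0.024). That call was lost without vehicle replicate 4 or 0.1 nM replicate 4, with the lists at full length and with only the compared groups in the fit. In VCaP a peak was listed there in 1 of 15 libraries.

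Within CDKN1A, 4.2 kb from the start (chr6:36682684-36683184), LNCaP ranks were 6.87, 0 and 20.8 at 10 nM, against 64.5, 41.3 and 67.3 with vehicle. The fall was 48.5 ± 10.9 points (limma adjusted p = 0.00325). It was lost with a fold enrichment ranking, with the lists at full length and with a −log10 q of at least 5. In VCaP the values there were 0, 0 and 0 at 10 nM, against 53.6, 0 and 60.4 with vehicle (adjusted p = 0.172). The summit 0.6 kb inside the gene (chr6:36679087-36679587) ranked 70.7, 79.1 and 79.2 at 10 nM and had no peak with vehicle in LNCaP, a rise of 76.3 ± 12.7 (adjusted p = 0.000298) that was also called at 0.03 and 0.1 nM. In all 11 libraries that listed it, it was a split summit of the start peak's interval, and the call ended when the overlapping peak gave the value.

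E2F7, the repressor of E2F target genes, had 3 higher regions in LNCaP, 2 in VCaP and no lower one in either line. The region 74.1 kb from its start and 29.7 kb past the end of its body (chr12:76991254-76991754) ranked 83.4, 78.1 and 78.6 at 10 nM, against 9.57, 0 and 0 with vehicle. It passed from the lowest LNCaP dose on, with means of 40.1 at 0.03 nM, 58.5 at 0.06 nM and 61 at 0.1 nM (limma adjusted p = 0.00843, 0.000133 and 6.55e-05). These 3 low-dose calls were lost when only peaks with a −log10 q of at least 5 were kept. That alternative also cut every LNCaP list to 56351 entries. In VCaP the region ranked 33.3, 38.6 and 21 at 10 nM and had no peak with vehicle. The rise was 76.8 ± 7.26 points in LNCaP and 31 ± 7.7 in VCaP, the VCaP call (adjusted p = 0.0137) ended with replicate 4 as the only vehicle library, and VCaP minus LNCaP was −45.9 ± 10.4 (adjusted p = 0.0141). Over the 86 regions tested in both lines, this line difference passed at 4 (2.62% of all regions), 2 higher (0.982% of all) and 2 lower (1.63% of all). At E2F7 it did not pass with replicate 4 as the only VCaP vehicle library, with the lists at full length or with only the compared groups in the fit.

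The region 12.1 kb upstream of E2F7 (chr12:77077390-77077890) rose in both lines. In LNCaP it ranked 80.7, 79.2 and 83.5 at 10 nM, against 0, 38 and 0 with vehicle, and it passed at 0.1 and 10 nM (limma adjusted p = 0.00528 and 0.000665), both under every alternative. It also passed at 0.06 nM (adjusted p = 0.0162), a call lost under 6 of 16 alternatives, among them leaving out vehicle replicate 3 or 5 or 0.06 nM replicate 3 or 4. In VCaP it ranked 83.2, 85.1 and 82.3 at 10 nM, against 40.6, 0 and 0 with vehicle (adjusted p = 0.0205). That call was lost under 7 of 17 alternatives, among them leaving out any 1 of the 10 nM libraries or vehicle replicate 2 or 4. The third region, 46.5 kb from the start (chr12:77018771-77019271), averaged 57 ± 9.24 at 10 nM in LNCaP, had no peak with vehicle and no peak in VCaP. In LNCaP all 3 libraries at each of 0.03, 0.06 and 0.1 nM also listed a peak. The region was called against vehicle at 0.06, 0.1 and 10 nM, calls that were lost with a −log10 q of at least 5.

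KLF4 had both standing peaks that climbed and weak ones that appeared. The region 14.9 kb upstream (chr9:107504469-107504969) ranked 89.8, 93.9 and 92.7 at 10 nM, against 64.1, 75.3 and 72.1 with vehicle, in LNCaP. It rose by 21.6 ± 3.85 points against vehicle (limma adjusted p = 0.000518) and by 15.5 ± 3.14 against the low doses (adjusted p = 0.0025), and it was not called at any low dose. In VCaP it averaged 94.3 ± 1.11 at 10 nM and 85.9 ± 6.97 with vehicle, which did not pass (adjusted p = 0.162). The region 34 kb downstream (chr9:107455516-107456016, in LINC01509) was called in LNCaP from the lowest dose, 0.03 nM (10.1 ± 2.14 points, adjusted p = 0.015). That call was lost under 3 of 16 alternatives, among them leaving out 0.03 nM replicate 3. The region had means of 71.2 with vehicle, 81.3 at 0.03 nM, 86.2 at 0.06 nM, 86.4 at 0.1 nM and 87.9 at 10 nM. Its calls ended when peaks were ranked by fold enrichment. The region 50.9 kb downstream (chr9:107438624-107439124, in LINC01509) was the lower one, at 35, 0 and 0 with 10 nM, against 72.5, 56 and 40.4 with vehicle, in LNCaP. Its fall of 44.6 ± 12.2 points (adjusted p = 0.0121) was lost under 7 of 15 alternatives, among them leaving out vehicle replicate 3 or 10 nM replicate 4 or 5.

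In VCaP 2 further KLF4 regions met the high-dose rule. One lies 15.3 kb downstream of the start (chr9:107474193-107474693) and ranked 37.6, 61.3 and 61.1 at 10 nM. Of the other 12 libraries only vehicle replicate 2 (34) and 0.06 nM replicate 1 (11.1) had a peak, and it stood 52.1 ± 9.58 points above the low doses (limma adjusted p = 0.00183). Its call against vehicle (adjusted p = 0.0275) was lost under 7 of 15 alternatives, among them leaving out vehicle replicate 1 or 4 or 10 nM replicate 2 or 4. The second, 10.6 kb downstream (chr9:107478913-107479413), ranked 31.4, 5.18 and 48.8 at 10 nM and 0 in the other 12, of which 2 listed a peak at full length. It stood 28.5 ± 6.79 points above the low doses (adjusted p = 0.0139), a call that ended without 10 nM replicate 4 or with no filter on low values. It entered the test only through its 10 nM libraries, so that p-value adds no support beyond the listed peaks. Its call against vehicle (adjusted p = 0.0352) was lost under 8 of 12 alternatives, among them leaving out any 1 vehicle library or 10 nM replicate 1 or 4. In the shortened LNCaP lists the first had a peak in 1 library and the second in none, and at full length 2 and 1 of the 12 libraries below 10 nM listed one.

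**Figure D3:**
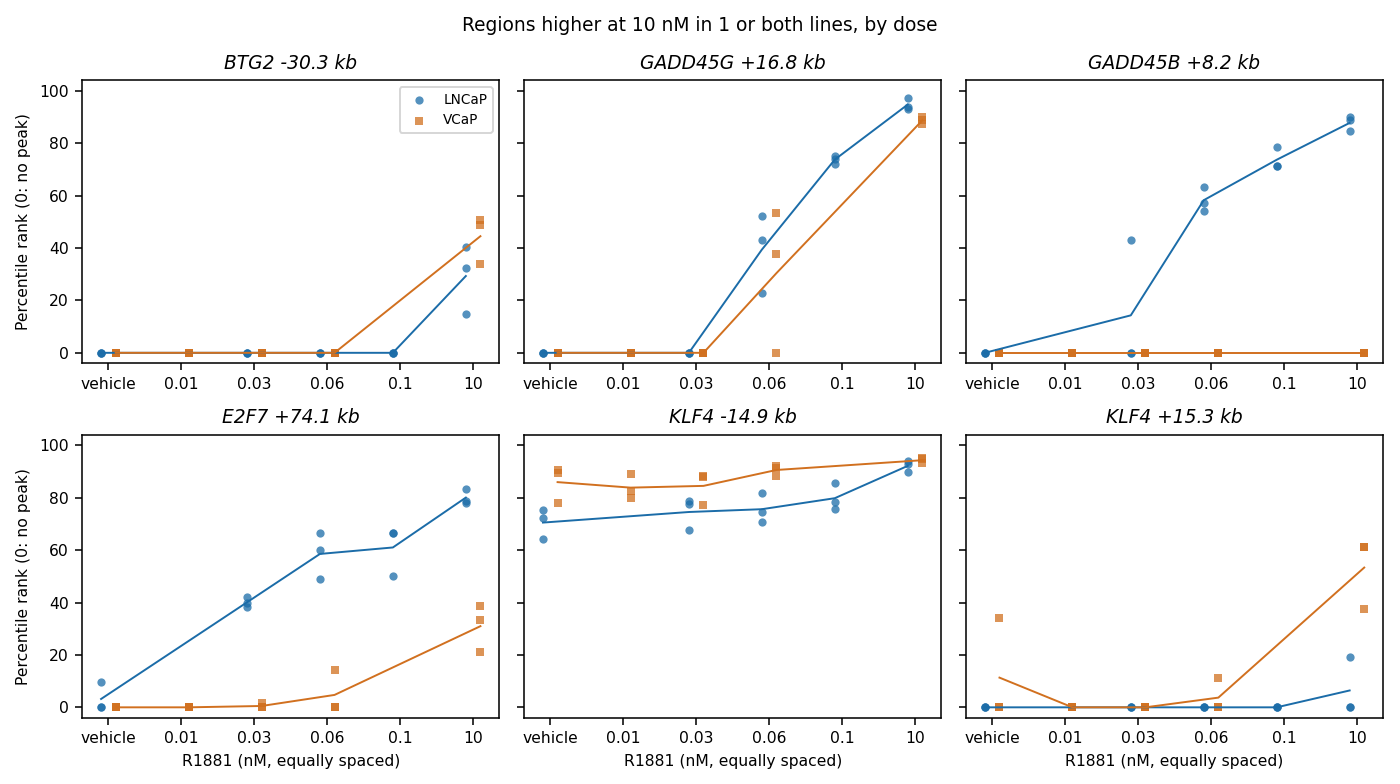
Percentile rank (vertical axis, 0 for no peak) of 6 regions higher at 10 nM in 1 or both lines against R1881 dose in nM (horizontal axis, doses equally spaced), with 1 point per library and lines through group means (LNCaP blue circles, VCaP orange squares). The region 30.3 kb upstream of BTG2 is at 0 in all 24 libraries below 10 nM, and the GADD45B region is at 0 in every VCaP library.

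**Figure D4:**
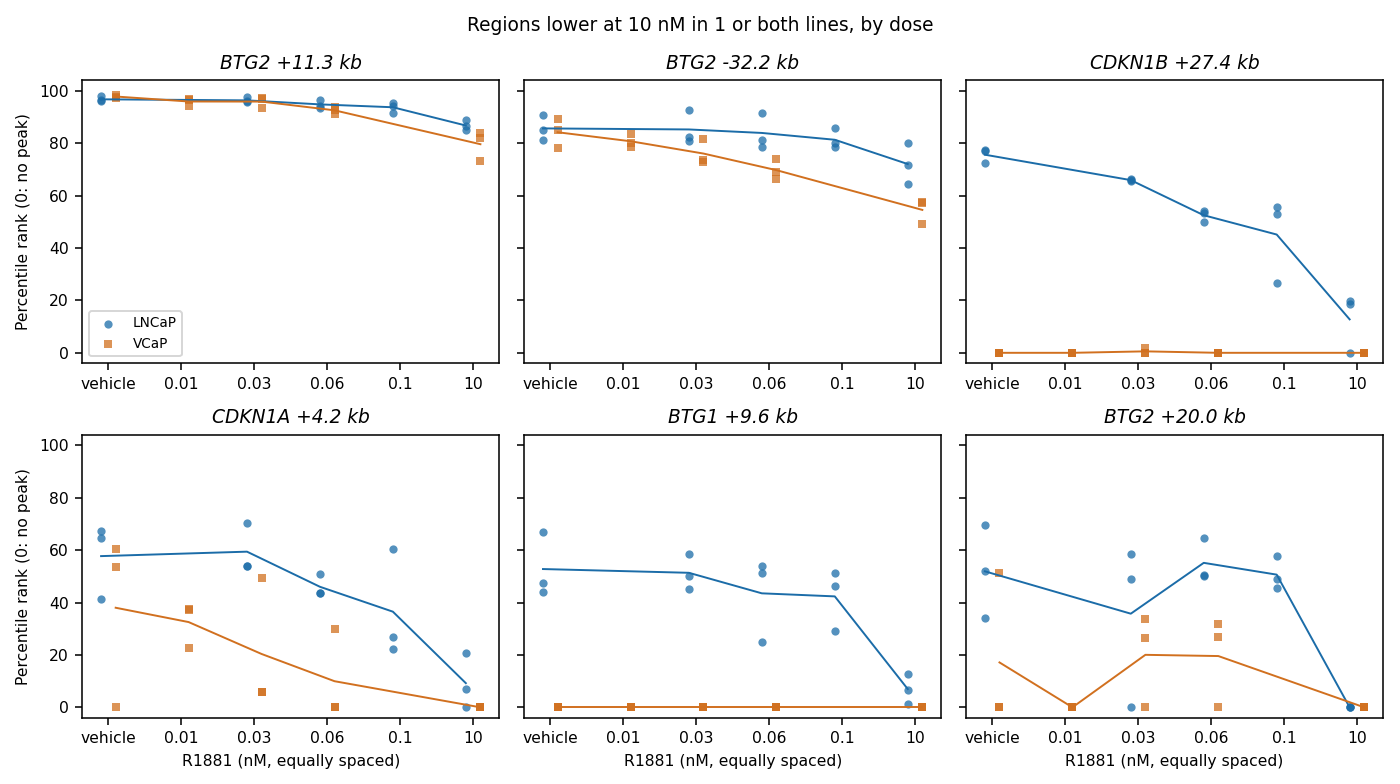
The same plot for 6 regions lower at 10 nM in 1 or both lines. The region 11.3 kb downstream of BTG2 falls in both lines, and those near CDKN1B, BTG1 and CDKN1A fall in LNCaP, where their 10 nM libraries lie below all vehicle libraries.

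Other growth arrest and cell cycle genes, a list of 36 with further kinase inhibitors, BTG, KLF, FOXO and sestrin genes, p53 and MDM2, also had regions past the test in both directions. At 10 nM against vehicle 54 of their 471 tested LNCaP regions were higher and 54 lower (11.5% each, beside 16.1% and 10.2% of all regions), over 22 and 27 genes, with a median difference of −1.7 points beside −0.36 over all regions. In VCaP 19 of 371 were higher and 12 lower (5.12% and 3.23%, beside 6.66% and 2.73% of all regions), over 16 and 8 genes, with a median of −0.8 beside −0.09. MDM2, the ubiquitin ligase that restrains p53, had a region 40.3 kb from its body (chr12:68890705-68891205) that rose in both lines. It ranked 77.7 ± 2.11 (SD, n = 3) at 10 nM, 2.82 ± 8.46 at the low doses and 0 with vehicle in LNCaP, and 74.2 ± 4.73 at 10 nM, 4.67 ± 8.68 at the low doses and 0 with vehicle in VCaP. Against the low doses the limma adjusted p was 4.27e-06 in LNCaP and 0.000191 in VCaP. Regions near FOXO3 and KLF6 in LNCaP and in SESN1 and BTG4 in VCaP were lower at 10 nM than at the low doses. KLF6 encodes a zinc finger factor, and its region 45.9 kb from the body averaged 67.5 ± 4.79 at 10 nM and 88.7 ± 2.77 at the low doses (adjusted p = 2.42e-06). FOXO3, a forkhead factor tied to arrest, had a region averaging 55.6 ± 2.05 at 10 nM and 80.2 ± 4.55 at the low doses (adjusted p = 6.69e-06). The BTG4 region averaged 35.7 ± 12.5 at 10 nM and 72.2 ± 9.43 at the low doses (adjusted p = 0.00192). The SESN1 region, SESN1 being a stress-induced p53 target, averaged 14.1 ± 24.4 at 10 nM, 75.2 ± 7.16 at the low doses and 83 ± 4.55 with vehicle in VCaP (adjusted p = 0.00016 against the low doses).

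The pattern of the GADD45G region 16.8 kb downstream, judged by Euclidean distance over the 5 VCaP group means, was nearest to that of regions near ZHX2 (2.43 points), DOCK4 (2.87), FAM135B (4.26), COL4A2 (4.42) and LEKR1 (6.12), with 31 regions within 10 points. For the BTG2 region 30.3 kb upstream in LNCaP the nearest were near CCNY, FAM83A, MAP3K20, HHIPL2 and CSMD1, at 0.00346 to 0.0837 points. For that pattern, a weak peak at 10 nM and none elsewhere, 2849 regions lay within 10 points.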

How the data were processed

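The authors trimmed reads with Trimmomatic 0.39, aligned them to GRCh38 (hg38) with BWA 0.7.17 and called peaks per library with MACS2 2.2.7.1, per the submitters' processing notes, which also name deepTools 3.5.1. The deposited lists give a score per peak, a fold enrichment at the summit, −log10 p and −log10 q values, and the summit offset, as the authors' peak caller wrote them. The lowest −log10 p listed was 2. Nothing says that replicates were pooled.

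From there, lists were shortened to the shortest of the line (134964 entries in LNCaP, 104924 in VCaP), each entry was assigned to the nearest region whose centre lay within 500 bp of its summit, and percentile ranks by −log10 p were computed in Python 3.11.15. Summits were used because 25.5% of entries shared their interval with another summit. Percentile ranks were fitted with limma 3.58.1 in R 4.3.3 (trend and robust moderation, 1 mean per group, the 15 libraries of each line together and all 30 for the line difference), two-sided, with Benjamini-Hochberg adjustment over 171269 regions in LNCaP, 128164 in VCaP and 93246 in both. The fit was also run on simulated normal values, with changes planted in regions of middle rank. That run does not bear on regions with no peak in a whole group. Named regions were the gene start, the 2 of smallest p per gene, line and direction at 10 nM against vehicle, and those meeting the high-dose rule. Regions whose change differed between the lines were named after their values were seen. Alternatives varied the list length, the q threshold, the overlap that gives a region its peak, the ranking measure, the filter, the libraries fitted and a replicate block. Promoters come from RefSeq (GRCh38.p14), matched by symbol for 8 of the 9 genes. The members and lists were chosen with earlier results of these data known. Exon and intron annotation was not used here.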

Additional observations from a re-analysis of the deposited data

Results flagged for a closer look

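The change at 10 nM against vehicle differed between the lines at 4 regions, by a test of the difference itself (VCaP minus LNCaP, limma over all 30 libraries). At the E2F7 region 74.1 kb from the start the rise was smaller in VCaP, with a difference of −45.9 ± 10.4 points (SE, adjusted p = 0.0141), and all 3 libraries of 10 nM lay above vehicle in each line. At the CDKN1A summit 0.6 kb inside the gene the difference was −98.9 ± 22.3 points (adjusted p = 0.0135). There LNCaP ranked 70.7, 79.1 and 79.2 at 10 nM and 0 with vehicle, while VCaP ranked 0 at 10 nM and had a peak in 1 vehicle library, of rank 67.8. At the GADD45G summits 1.1 and 0.6 kb upstream the differences were 44.7 ± 12 points (adjusted p = 0.0413) and 89.4 ± 14.5 points (adjusted p = 0.000634). These last 3 summits were split from wider peaks in every library that listed them, and all 3 differences turned in sign when an overlapping peak gave the value.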

How the results depend on the processing

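Apart from the q threshold, alternatives changed 1 choice at a time. Keeping −log10 q of at least 5 also cut the lists, to 56351 entries in LNCaP and 24331 in VCaP. The parts of the threshold and of the shorter lists cannot be told apart in it. Counts are of regions near the 9 genes. Shares over all regions are not given for the alternatives, so a changed count cannot be read as particular to these genes. Keeping −log10 q of at least 5 left 18 LNCaP regions at 10 nM against vehicle, 10 against low doses and 7 at 0.1 nM, 4 and 4 in VCaP at 10 nM against vehicle and low doses, and 2 line differences. Taking the peak over the centre base gave 7 at 0.1 nM in LNCaP, 11 at 10 nM against vehicle in VCaP and 1 line difference, an overlap of 250 bp gave 7, 9 and 1, and an overlap of 1 bp, chosen after seeing the data, gave 7 and 1 for the first and last. For VCaP at 10 nM against vehicle, ranking by fold enrichment gave 9 (1 line difference), no filter 9, and a peak in at least 8 libraries 8 (2 against low doses, 1 line difference). Fitting only the groups compared gave 8 (1 at 0.03 nM, 2 line differences), and vehicle replicate 4 alone, also chosen after seeing the data, 3 (1 line difference). With all deposited peaks 1 VCaP region passed at each of 0.01, 0.03 and 0.06 nM. Leaving out each library in turn gave 23 to 34 in LNCaP at 10 nM against vehicle, 14 to 21 against low doses, and 2 to 4, 5 to 7 and 9 to 12 at 0.03, 0.06 and 0.1 nM. In VCaP it gave 9 to 13 against vehicle, 9 to 12 against low doses and 0 to 2 at each low dose, and 3 to 7 line differences.

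Ranked by fold enrichment, the start differences in LNCaP turned to −10.7 (GADD45A) and −16.9 (BTG1). Under the 3 scorings by peak interval, the line differences turned to 8.01 for the CDKN1A summit 0.6 kb inside and −2.39 for both GADD45G summits upstream. The GADD45G summit 1.1 kb upstream turned to 6.77 at 0.1 nM in LNCaP, in VCaP those 0.6 kb upstream and inside turned to −6.66 and 1.01, and the LMNB2 region near GADD45B turned to 19.2 in LNCaP. The cause was not tested.

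Replicate numbers are shared by the groups, but the labels do not say what they mark. Same-numbered libraries deviated together, with r above 0.1, in 24 of 30 LNCaP and 26 of 30 VCaP pairs, and since not every pair was above 0.1 the numbers were not taken to pair samples. Own-number libraries correlated best for 11 of 15 in LNCaP and 15 of 15 in VCaP. With the replicate block, counts were 37 and 24 in LNCaP and 20 and 17 in VCaP at 10 nM against vehicle and low doses, 3, 7 and 15 at the LNCaP low doses, 0, 1 and 3 at the VCaP low doses, and 8 line differences.

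The 2 shallow VCaP vehicle libraries limit the comparisons with vehicle in that line, and reads per library are unknown. A rank of 0 means that no peak was in the shortened list, not that the site was closed.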
